A study of Mus musculus with 4 samples.

Results

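Deep clusters in first introns are stretches of intron 1 at which IGF2BP3 eCLIP reads piled up away from the exons of the annotation used. A cluster was counted when its centre lay in no exon of a GENCODE M21 basic transcript on its strand, over 100 bases from every exon edge, and in intron 1 of the transcript chosen for a protein-coding gene. Replicate 1 had 45774 members among its 337234 clusters by this rule, and replicate 2 had 24517 among 216354, that is 13.6% and 11.3%. Both replicates were testes of 8-week-old wild-type C57BL/6 mice. Each replicate had 1 IP library, from RNA cross-linked to protein and precipitated with an antibody to IGF2BP3, and 1 SMInput library, the size-matched RNA of the same lysate without precipitation. Tissue of 2 testes went into an eCLIP experiment, so germ cells and somatic cells were measured together, and fewer cells of a type cannot be told apart from less RNA per cell. The listed values of the clusters corresponded to 5133438 IP and 8706391 SMInput reads in replicate 1, and to 4637612 IP and 16696122 SMInput reads in replicate 2.

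IGF2BP3 is an RNA-binding protein with RRM and KH domains that associates with many mRNAs and has been described as a reader of m6A. Introns are removed from pre-mRNA in the nucleus, and eCLIP reads pre-mRNA and mRNA alike. The first intron of a mammalian gene is often its longest, and its 5′ part lies close to the promoter.

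A cluster was called significant when its log2(fold change) of IP over SMInput, each scaled to its library, was at least 2 and its −log10(P value) was at least 2. The P values compare IP with SMInput reads within 1 replicate and say nothing of the spread between animals. In replicate 1, 925 of 45774 members were significant, or 2.02% (95% Wilson interval 1.9 to 2.15), against 4.92% of all clusters. In replicate 2, 2519 of 24517 members were significant, or 10.3% (9.9 to 10.7), against 13.2% of all clusters. In both replicates the members were therefore called less often than the table as a whole. The mean of the 2 shares was 6.16% ± 5.85 (SD, n = 2), so the SD between replicates was nearly as large as the mean itself. Wilson intervals here and below cover counting error only, and clusters are not replicates, so no test was made between sets of clusters.

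First introns did not stand apart from other introns in the same direction in both replicates. Deep clusters of later introns were significant in 1.86% (1.79 to 1.94) of 128659 cases in replicate 1, slightly less often than the members. In replicate 2 the order was the opposite, with 10.9% (10.7 to 11.1) of 65903 later-intron clusters. Intron clusters within 100 bases of an exon edge were significant in 2.19% (1.88 to 2.56) and 10.3% (9.38 to 11.3). Clusters in exons had the highest shares, with 9.1% significant in replicate 1 and 15.3% in replicate 2. The density of members was also that of later introns. Over 225 megabases of deep first-intron sequence there were 203 clusters per megabase in replicate 1 and 109 in replicate 2. Over 627 megabases of deep later-intron sequence there were 205 and 105.

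Stricter calls left few members. At thresholds of 3 for both values, 140 members of replicate 1 (0.306%) and 219 of replicate 2 (0.893%) were called, against 1.18% and 2.42% of all clusters. With P values adjusted by the Benjamini-Hochberg method over the whole table and an adjusted p of at most 0.05, 322 members of replicate 1 (0.703%) were called, against 3.24% of all clusters. The same rule called 1470 members of replicate 2 (6.0%), against 10.4% of all clusters. Members thus lost a larger part of their calls than the table did in each of these settings.

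The members rested on few reads, which could be recovered for 42969 members of replicate 1 and 23655 of replicate 2. Members listed at a −log10(P value) of 0, 6.1% and 3.44% of the total, have no recovered reads and cannot be called. Shares of calls by read number leave them out and are higher than they would be with them. Of all clusters a larger part, 10.6% and 7.52%, was left out in this way. Medians by read number leave out the same clusters, and the effect of this unequal loss was not tested. The median member with recovered reads had 4 IP and 2 SMInput reads in replicate 1, and 4 IP and 3 SMInput reads in replicate 2. The commonest member in both replicates had 3 IP reads and 1 SMInput read, which was 25.5% of members in replicate 1 and 13.7% in replicate 2. This pair of counts gave a log2(fold change) of 2.35 in replicate 1 and 3.43 in replicate 2, yet a −log10(P value) of 0.832 and 1.46. Such a cluster could not be called in either replicate. Of the clusters with recovered reads, 10 or more reads were found for 12.3% of members in replicate 1 against 30.4% of all clusters, and 32.4% against 54.4% in replicate 2. Exon clusters were deeper, with medians of 12 and 18 reads.

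The library totals set how many IP reads a call needed. With 1 SMInput read, 7 IP reads were the fewest that passed both thresholds in replicate 1, and 4 in replicate 2. With 5 SMInput reads the fewest were 12 and 7. In replicate 1, 1.56% of the members with 5 to 9 reads were significant. Replicate 2 had 14.6% of such members significant. All clusters of this depth differed between the replicates in the same way, with 1.74% and 15.3%. From 10 to 19 reads the shares of members with recovered reads were 10.2% (9.39 to 11.1) in replicate 1 and 9.65% (8.96 to 10.4) in replicate 2. All clusters of 10 to 19 reads had higher shares, 13.6% and 15.4%. From 20 to 49 reads 5.53% (3.86 to 7.88) and 4.06% (3.06 to 5.38) of members were significant, below the 15.3% and 14.6% of all clusters of that depth.

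Significant members were mostly near the lowest passing counts. Their median was 8 IP reads and 1 SMInput read in replicate 1, where 515 of 925 had a single SMInput read. In replicate 2 the median was 5 IP and 2 SMInput reads, and 1216 of the 2518 with recovered reads had a single SMInput read. Their median log2(fold change) was 3.57 in replicate 1 and 3.66 in replicate 2. Their median −log10(P value) was 2.28 and 2.16, just past the threshold, against 3.12 and 2.71 for all significant clusters. Significant later-intron clusters had the same medians, 2.28 and 2.16, and 56.9% and 54.1% of them had a single SMInput read. Significant members were wider than other members, with a median of 66 against 39 bases in replicate 1 and 57 against 42 in replicate 2. Over all members the median log2(fold change) was 1.76 in replicate 1 and 1.85 in replicate 2, against 1.5 and 1.53 for all clusters. At like depth, among clusters with recovered reads, members were not higher. From 5 to 9 reads both had medians of 1.5 in replicate 1 and 2.26 in replicate 2. From 10 to 19 reads members had 1.03 and 1.17, against 1.18 and 1.26 for all clusters. From 20 to 49 reads they had 0.76 and 0.75, against 1.03 and 1.02. A log2(fold change) below 0 was found for 3.79% and 2.75% of members, against 8.19% and 6.59% of all clusters. Later-intron clusters were much like the members, with 3.33% and 2.41%.

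Along the intron, members thinned out with distance from the 5′ splice site. Within 1000 bases of it there were 284 members per megabase in replicate 1 and 161 in replicate 2. Beyond 50000 bases there were 83.7 and 41.5. The share of significant members was 3.03% (2.54 to 3.6) within 1000 bases and 1.67% (1.42 to 1.95) between 20000 and 50000 bases in replicate 1. The same distances had 12.5% (11.2 to 13.9) and 10.2% (9.32 to 11.1) in replicate 2. In both replicates the share was thus highest in the first 1000 bases, and this set held 8.88% and 9.41% of the members. By intron length, the share was highest in introns of up to 2000 bases, with 4.62% (3.49 to 6.09) and 13.5% (10.9 to 16.6). Long introns held most members, and the 976 first introns over 50000 bases had 34.4% of them in replicate 1 and 33.9% in replicate 2. Of 20389 first introns, 1620 had no base over 100 bases from an exon and could hold no member.

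The counts at the limit of 100 bases were too small to show a step there or to exclude one. Just outside it, at 91 to 100 bases from an exon edge, 7 of 119 first-intron clusters in replicate 1 and 5 of 67 in replicate 2 were significant, or 5.88% (2.88 to 11.6) and 7.46% (3.23 to 16.3). Just inside it, at 101 to 110 bases, 4 of 106 and 5 of 52 were, or 3.77% (1.48 to 9.3) and 9.62% (4.18 to 20.6).

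The share of calls also varied with the GC content of the members. The median GC content was 46.3% in significant and 45.5% in other members of replicate 1, and 46.2% and 45.2% in replicate 2. By GC class, the lowest shares of calls were in members with 60% GC or more, at 1.17% (0.903 to 1.52) and 7.64% (6.64 to 8.78). The highest were in members with 40 to 50% GC, at 2.45% (2.21 to 2.72) and 11.6% (10.9 to 12.3). Clusters with at least 50% of their bases in soft-masked repeats were 23.0% of significant and 26.4% of other members in replicate 1, and 30.7% and 30.2% in replicate 2. The centre lay over an exon of the opposite strand in 0.703% and 0.64% of members. Introns with the start codon in exon 1 and introns before the start codon had overlapping intervals, with 1.99% (1.84 to 2.15) against 2.09% (1.87 to 2.34) significant in replicate 1 and 10.2% (9.74 to 10.7) against 10.5% (9.8 to 11.2) in replicate 2. On the X chromosome 8 of 846 members were significant in replicate 1 and 44 of 339 in replicate 2, or 0.946% (0.48 to 1.85) and 13% (9.81 to 17). The interval lay below the share of all members in replicate 1 and held it in replicate 2. All clusters on the X had 3% significant in replicate 1, against 4.96% on autosomes, and 13.8% against 13.2% in replicate 2.

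Some members lay in exons of another annotation. The centre was in an exon of a RefSeq transcript of the same build and strand in 5.18% of members in replicate 1 and 6.13% in replicate 2, most of them in predicted transcripts. In curated RefSeq transcripts it was 0.496% and 0.787%. Significant were 2.99% (2.38 to 3.76) of the members in RefSeq exons in replicate 1 and 11.0% (9.49 to 12.7) in replicate 2. Without them the shares were 1.97% and 10.2%. Within 1000 bases of the 5′ splice site, 5.48% (3.84 to 7.76) and 12.5% (9.48 to 16.2) of the members in RefSeq exons were significant. In no RefSeq exon, 2.66% (2.18 to 3.24) and 12.5% (11.1 to 14.0) of the members at this distance were.

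The members were spread over many genes. In replicate 1, 6035 of 20389 genes with a first intron had a member, with a median of 3 members, and 645 had a significant one. In replicate 2, 4634 genes had a member and 1506 a significant one. Both replicates had a significant member in 345 genes, or 1.69% of the genes. Genes with a significant member had more often a significant cluster in an exon of the chosen transcript. This was so for 53.3% (49.5 to 57.2) of them in replicate 1, against 37.4% (36.1 to 38.7) of genes whose members were not significant and 13% of genes without members. The shares in replicate 2 were 57% (54.5 to 59.5), 49.8% (48.1 to 51.6) and 20%. The RNA level of these genes was not measured here.

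Few members were found at the same place in both replicates. At least 1 base on the same strand was shared by 3441 members of replicate 1, or 7.52%, with a member of replicate 2, and the reverse held for 3355 members, or 13.7%. This share was not counted for all clusters or later introns, so whether members overlapped less often than other clusters is not known. The significant members gave 25 sites in 24 genes that were significant in both replicates, after joining of touching clusters. These sites took 30 significant members of replicate 1, or 3.24%, and 29 of replicate 2, or 1.15%. Later introns gave almost the same shares, 3.17% and 1.03%, and all clusters gave 33.0% and 18.5%. A significant member of 1 replicate was thus rarely significant in the other, in first and in later introns alike.

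Where clusters did overlap, their values moved together in part. Over 3590 overlapping pairs of members, Pearson's r between the log2(fold change) of the replicates was 0.504 and Spearman's rho 0.484. Over the 992 pairs with at least 10 reads in both, r was 0.273 and rho 0.214. These are descriptions across sites, which share their libraries. In the 121 pairs significant in replicate 1, the median log2(fold change) in replicate 2 was 1.59, against 1.17 in the 3469 other pairs. In the 298 pairs significant in replicate 2, the median in replicate 1 was 1.76, against 0.98 in the 3292 other pairs. Of the pairs significant in replicate 1, 27.3% (20.1 to 35.8) were also significant in replicate 2, against 7.64% (6.8 to 8.57) of the other pairs. Members that were called in 1 replicate and present in the other therefore had the higher values there too.

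The 25 shared sites lay closer to the 5′ splice site than members did as a whole. Of these sites 11, or 44.0% (26.7 to 62.9), were within 1000 bases of it, against 13.3% of significant members in replicate 1 and 11.4% in replicate 2. Their median distance was 1816 bases, against 8035 and 9726 bases for the significant members. The start codon came after intron 1 for 14 of the 25, or 56.0%, with an interval (37.1 to 73.3) that lay above the 31.7% and 32.1% of members but held the 38.9% of first introns. RefSeq exons held 6 of the 25 sites, of which 5 were among the 11 near the splice site, so 6 of the 19 other sites were within 1000 bases. The median log2(fold change) of the shared sites was 3.01 in replicate 1 and 2.99 in replicate 2, taking the highest cluster of each replicate. Replicate 1 had the higher value at 13 sites and replicate 2 at 12, so neither replicate led. Their median IP read number was 10 in replicate 1 and, over the 24 sites where it could be recovered, 9 in replicate 2. A significant cluster in an exon of the same transcript was present in both replicates for 12 of the 24 genes.

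Prr19, which encodes a proline-rich protein needed for meiotic crossovers, had the strongest of these sites. In its first intron of 1398 bases, all 4 members of replicate 1 and all 4 of replicate 2 were significant, and 2 of the 25 sites lay there. At the first site, chr7:25301712-25301825 on the plus strand of mm10, the log2(fold change) was 6.26 in replicate 1, with 181 IP and 4 SMInput reads. Replicate 2 had 5.57 there, with the listed −log10(P value) at its highest value of 400. The second site, chr7:25301859-25301952, had a log2(fold change) of 4.32 from 47 IP and 4 SMInput reads in replicate 1. Replicate 2 had 3.62, from 58 IP and 17 SMInput reads. Both sites began within 500 bases of the 5′ splice site, and both lay in exons of predicted RefSeq transcripts. The exons of the chosen Prr19 transcript held 0 clusters in either replicate. At 6.26 the first site had the highest log2(fold change) of all members in replicate 1. In replicate 2 the highest value of all members was 5.66, above the 5.57 of this site.

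The other 6 sites with the highest values rested on fewer reads. In Ttc23, which encodes a tetratricopeptide repeat protein, the site at chr7:67659175-67659320 on the plus strand had a log2(fold change) of 3.76 from 8 IP reads and 1 SMInput read in replicate 1. Replicate 2 had 3.85, from 4 IP reads and 1 SMInput read. This was the lowest passing count of replicate 2. In Dpp9, a dipeptidyl peptidase gene, the site at chr17:56218143-56218222 on the minus strand had 3.57 in replicate 1, from 7 IP reads and 1 SMInput read. Its value in replicate 2 was 5.31, from 11 IP reads and 1 SMInput read. It lay in an exon of a curated RefSeq transcript. In Ccdc30, a gene of a coiled-coil protein, the site at chr4:119414892-119415066 on the minus strand had 4.46 in replicate 1, from 13 IP reads and 1 SMInput read. The value in replicate 2 was 3.53, from 16 IP and 5 SMInput reads. With its middle 157 bases from the 5′ splice site, it was the nearest of the 25.

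In Cnot9, which encodes a subunit of the CCR4-NOT deadenylase complex, the site at chr1:74507303-74507378 on the plus strand had a log2(fold change) of 3.76 in replicate 1, from 8 IP reads and 1 SMInput read. In replicate 2 it was 3.26, from 8 IP and 3 SMInput reads. The 2 values of the Cnot9 site were further apart than those of the Ttc23 site. In Anks3, an ankyrin repeat gene, the site at chr16:4962255-4962354 on the minus strand had 3.08 in replicate 1, from 10 IP and 2 SMInput reads. In replicate 2 it was 3.17, from 5 IP and 2 SMInput reads. In Nfya, which encodes the A subunit of the transcription factor NF-Y, the site at chr17:48408925-48409026 on the minus strand had 3.01 in replicate 1, from 19 IP and 4 SMInput reads. It had 3.75 in replicate 2, from 30 IP and 8 SMInput reads. After Prr19 the Nfya site had the most IP reads of these 8 in both replicates. The Dpp9 site missed the adjusted limit of 0.05 (Benjamini-Hochberg) in replicate 1, with an adjusted p of 0.0847. The highest cluster of the Ttc23 site narrowly missed it in replicate 2, with an adjusted p of 0.0504.

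The sequences of these 8 sites are shown because they carry the largest values found in both replicates. They were read from GRCm38.p6 (mm10), 5′ to 3′ on the strand of the clusters, and capitals mark any of 5 motifs: the letters GAACA, the letters AAACC, the letters GGACT, the letters ACACA or the run TTTTT.
Prr19 first site: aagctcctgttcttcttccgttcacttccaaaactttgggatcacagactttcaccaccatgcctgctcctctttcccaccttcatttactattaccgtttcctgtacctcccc
Prr19 second site: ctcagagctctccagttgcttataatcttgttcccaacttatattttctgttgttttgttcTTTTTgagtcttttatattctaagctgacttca
Ttc23 site: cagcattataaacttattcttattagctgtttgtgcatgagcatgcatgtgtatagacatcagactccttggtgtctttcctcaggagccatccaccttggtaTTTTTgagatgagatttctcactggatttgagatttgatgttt
Dpp9 site: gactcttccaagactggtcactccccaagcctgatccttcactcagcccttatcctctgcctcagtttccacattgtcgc
Ccdc30 site: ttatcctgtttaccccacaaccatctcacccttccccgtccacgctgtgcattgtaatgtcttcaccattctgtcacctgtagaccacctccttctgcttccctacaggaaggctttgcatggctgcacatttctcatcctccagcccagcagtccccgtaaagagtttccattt
Cnot9 site: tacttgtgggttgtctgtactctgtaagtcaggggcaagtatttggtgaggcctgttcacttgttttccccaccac
Anks3 site: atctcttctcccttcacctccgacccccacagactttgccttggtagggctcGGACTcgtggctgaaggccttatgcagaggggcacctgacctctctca
Nfya site: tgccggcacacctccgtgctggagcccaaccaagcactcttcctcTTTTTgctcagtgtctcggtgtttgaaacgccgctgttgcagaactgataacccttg
Of the 8 sites, 3 held TTTTT, 1 held GGACT and 4 held none of the 5 motifs. Seen after the fact, pyrimidines made up more of these sequences than purines, from 56.8% in Ttc23 to 72.8% in the first Prr19 site.

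Across the members the motifs other than TTTTT and GGACT were less frequent than in deep first-intron sequence as a whole. The 5 motifs were searched on the strand of the cluster only, in windows of 100 bases around the centre, and GAACA and ACACA can share bases. GAACA was in 7.35% (5.84 to 9.22) of significant members in replicate 1 and 7.34% (6.39 to 8.43) in replicate 2. In other members it was in 8.42% and 7.87%, and in 10% of all 2233661 windows of deep first-intron sequence. The interval of significant members held the share of other members in each replicate. AAACC was in 6.16% (4.79 to 7.9) and 6.95% (6.02 to 8.01) of significant members, in 7.35% and 6.41% of other members, and in 9.24% of all first-intron windows. ACACA was in 10.3% (8.48 to 12.4) and 10.2% (9.04 to 11.4) of significant members, in 10.6% and 9.66% of other members, and in 13.7% of all first-intron windows. These 2 motifs too had intervals of significant members that held the share of other members.

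GGACT, which has the form of an m6A consensus site, was in 10.1% (8.28 to 12.2) of significant members in replicate 1 and 8.54% (7.51 to 9.69) in replicate 2. Other members held it in 8.16% and 7.71%, later-intron clusters in 7.58% and 7.44%, and all first-intron windows in 7.77%. Significant later-intron clusters held it in 8.01% (6.99 to 9.17) and 7.92% (7.32 to 8.57), and all significant clusters in 9.92% and 9.09%. The interval of significant members held the share of other members in replicate 2 and lay just above it in replicate 1. TTTTT was in 21.8% (19.3 to 24.6) and 26.9% (25.2 to 28.6) of significant members. Other members held it more often, in 26.7% (26.3 to 27.1) and 32.5% (31.8 to 33.1), while all first-intron windows held it in 20.4%. Around the 25 shared sites, TTTTT was in 6 windows, GAACA and GGACT in 3 each, ACACA in 2 and AAACC in 1, and 14 windows held none.

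The pyrimidine content, added after the site sequences had been seen, was no higher in significant members than in other members. Windows with at least 60% pyrimidines were 16.1% (13.9 to 18.6) of significant and 19.7% of other members in replicate 1. In replicate 2 they were 21.1% (19.6 to 22.8) and 23.9%, against 15.8% of all first-intron windows. The significant members of replicate 1 were thus close to first-intron sequence as a whole, and the other members and those of replicate 2 were above it. For the 25 shared sites the content was the mean over the windows of the clusters in a site, unlike the single windows above. At least 60% was reached by 8 sites, but 5 of these belong to the 8 sites whose sequences led to the measure. Of the other 17 sites 3 reached it, or 17.6% (6.19 to 41), an interval that held the share of all first-intron windows.

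Genes with the most members had very long first introns. Magi2, which encodes a scaffold protein of cell junctions, had 381 members in replicate 1 and 242 in replicate 2 in a first intron of 451063 bases. Significant were 7 and 13 of them. Cadm1, an adhesion molecule of germ cells, had 311 and 235 members, of which 16 and 21 were significant. In neither gene was a site significant in both replicates. Fgf14, of the intracellular fibroblast growth factor homologues, had 252 and 147 members with 1 and 9 significant. Zfp385b, a zinc finger gene, had 169 and 100 members with 0 and 9 significant. Celf2, which encodes a regulator of splicing, had 159 and 109 members with 1 and 10 significant. In replicate 2 the share of significant members was below that of all members in each of these 5 genes, and in replicate 1 it was above it in Cadm1 alone.

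Gm20388 ranked among the genes with most members too. Its first intron of 4384418 bases spans 36 other protein-coding genes on the same strand, and it had 383 members in replicate 1 and 200 in replicate 2. Of these, 165 and 82 also lay in a later intron of another gene. Significant were 13 and 39 members, the most of any gene in replicate 2. One site, chr8:121915420-121915526 on the plus strand, was significant in both replicates, at a log2(fold change) of 2.35 and 2.02. Members in this intron and members of the genes it spans cannot be told apart by position, and without them the shares of significant members were 2.01% and 10.2%.

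By significant members, Tsc22d1, Sh3gl3 and Dip2c followed. Tsc22d1, a leucine zipper gene, had 7 significant of 115 members in replicate 1 and 7 of 82 in replicate 2. Sh3gl3, which encodes an endophilin, had 2 of 111 and 11 of 100. Dip2c had 4 of 69 and 8 of 40. None of the 3 had a site that was significant in both replicates.

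Dot1l, Chd5 and Hdac11 had from 0 to 5 members in intron 1, where genes with members had a median of 3 in replicate 1 and 2 in replicate 2. Dot1l, a histone H3 lysine methyltransferase gene, had 3 members in replicate 1, none of them significant, with a highest log2(fold change) of 3.35 from 6 IP reads and 1 SMInput read. In replicate 2 it had 5 members and 1 was significant, with a log2(fold change) of 4.17 from 5 IP reads and 1 SMInput read at chr10:80763006-80763043. With no significant member in replicate 1, Dot1l had no shared site. Chd5, a chromatin remodeler of spermatids, had 3 and 4 members, of which 0 were significant in either replicate. Hdac11, a histone deacetylase gene with a first intron of 549 bases, had 0 members in both. Each of these 3 genes had more clusters in exons than in intron 1, from 11 to 66 in a replicate.

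The axonemal genes of the study had at most 1 member in a replicate. Cfap65 had 1 member in each replicate, with a log2(fold change) of 1.76 and 2.11, neither significant. Dnah2 had 0 members and 1 member, the latter at 0.85. Dnhd1, with a first intron of 130 bases, had no room for a member. Igf2bp3 itself had 1 member in replicate 1, at 1.76 from 4 IP and 2 SMInput reads, and 2 in replicate 2, of which 1 was significant at 3.17 from 5 IP and 2 SMInput reads. Ybx2, a Y-box protein gene of germ cells, had 0 members in replicate 1 and 1 in replicate 2, at 0.48 from 41 IP and 106 SMInput reads. The Ybx2 member was thus deep in reads and little enriched.

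Over the 11 gene lists, Kmt2e was the single gene with a site significant in both replicates. This gene of the trithorax-related histone methyltransferase family had its site at chr5:23442086-23442171 on the plus strand. The log2(fold change) there was 2.93 in replicate 1, from 9 IP and 2 SMInput reads. In replicate 2 it was 2.04, from 8 IP and 7 SMInput reads. Under neither stricter rule was the site called in both replicates, as its adjusted p was 0.062 in replicate 1 and both log2 values were below 3. The exons of Kmt2e held 16 significant clusters in replicate 1 and 25 in replicate 2. Among all genes with a first intron, 0.118% had a shared site.

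Histone lysine methyltransferase genes had members, and significant ones, more often than all genes did. Of these 31 genes, 6 had a significant member in each replicate, or 19.4% (9.19 to 36.3) both times, against 3.17% and 7.39% of all genes, and 51.6% and 45.2% had any member, against 29.6% and 22.7%. Of 34 genes of chromatin remodelers and bromodomain proteins, 6 and 5 had one, or 17.6% (8.35 to 33.5) and 14.7% (6.45 to 30.1), so the interval held the share of all genes in replicate 2. Any member was present in 61.8% and 55.9% of them. Both sets of genes also had longer first introns, with medians of 6007 and 8810 bases against 2729 for all genes, and the part of length in the counts was not tested. Read per member, 3.52% and 10.7% of the members of the methyltransferase genes were significant, against 2.02% and 10.3% of all members. For the remodelers the shares were 3.82% and 5.13%, so that they were above all members in replicate 1 and below them in replicate 2. Of 28 histone deacetylase and acetyltransferase genes, 0 had a significant member in replicate 1 and 2 had one in replicate 2, while 50% and 35.7% had any member. The intervals of genes with a significant member (0 to 12.1 and 1.98 to 22.6) held the shares of all genes. Read per member, 0 of 104 and 3 of 70 were significant, the latter being 4.29%, below the shares of all members.

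The germ cell lists held few genes with a significant member, and the Wilson interval of each list held the 3.17% and 7.39% of all genes. Of 38 spermatid genes with a first intron, 1 had a significant member in replicate 1 and 4 in replicate 2, or 2.63% and 10.5%. Of 42 meiotic genes, 3 had one in each replicate, or 7.14%. Of 38 axonemal genes, 1 and 3 had one, or 2.63% and 7.89%. Of 26 genes of m6A factors, IGF2BP and Y-box proteins, 1 and 4 had one, or 3.85% and 15.4%, and over both replicates these were Igf2bp3, Virma, Rbm15, Alkbh5 and Fto. Among 14 spermatogonia markers, Sall4 alone had a significant member, in replicate 2. Read per member, 0.781% and 11.3% were significant in the spermatid list, 9.09% and 10.3% in the meiotic list, 2.94% and 8.57% in the axonemal list and 0.926% and 7.69% in the list with m6A factors, against 2.02% and 10.3% of all members. Any member was present in 36.8% and 26.3% of the spermatid genes, 47.6% (33.4 to 62.3) and 31% of the meiotic genes, 42.1% and 44.7% (30.1 to 60.3) of the axonemal genes and 53.8% (35.5 to 71.2) and 50% (32.1 to 67.9) of the genes of the list with m6A factors. The intervals given lay above the 29.6% and 22.7% of all genes, so the histone lists were not alone in this. The spermatogonia markers were lower, with any member in 7.14% (1.27 to 31.5) and 14.3% (4.01 to 39.9), though these intervals held the shares of all genes.

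Markers of somatic cells of the testis also had members, as 29.6% of all genes did in replicate 1 and 22.7% in replicate 2. Of 14 Sertoli cell markers, 7 had a member in replicate 1 and 6 in replicate 2, or 50% and 42.9%, and Wt1 and Fshr had a significant one in replicate 2. Of 10 Leydig cell markers, 2 and 1 had a member, or 20% and 10%, and Scarb1 had a significant one in replicate 2. Of 17 markers of peritubular cells, endothelium and macrophages, 3 and 2 had a member, or 17.6% and 11.8%, and 0 had a significant one. The Wilson intervals of these short lists all held the share of all genes with a member, and the part of somatic RNA in the counts was not tested.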

How the data were processed

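IGF2BP3 eCLIP libraries (IP and SMInput, 2 replicates each) were compared within each replicate. The authors removed adapters with cutadapt and ribosomal RNA reads with Bowtie2, aligned to mm10 with STAR, used molecular identifiers to collapse duplicates and ran Clipper on each replicate. As deposited, −log10 values stand for P of IP against SMInput reads within a cluster, and run from 0 to 400. The deposited log2 values are the authors' fold changes of IP over SMInput.

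Clusters were placed with the GENCODE M21 basic annotation, taking for each gene the transcript with the longest CDS, then the longest transcript, then the lowest identifier. A cluster in first introns of several genes was given to the shortest intron. Library totals and reads per cluster were found as whole numbers that return both listed values (relative tolerance 0.0001 on −log10), with Fisher's exact test where a number was below 5 and otherwise a chi-square test with Yates' correction, and tested on simulated data. They were found for 99.9% and 99.8% of clusters between 0 and 400. Sequence and soft-masked repeats came from GRCm38.p6. Named were the 8 highest shared sites by the smaller of their 2 log2 values, the 6 genes with most members, the 6 with most significant members, 8 genes of the study, and list genes with a shared site. The members and lists were chosen with earlier results of these data known. Python 3.11.15, numpy 2.4.6, pandas 2.3.3 and scipy 1.17.1 were used.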

Additional observations from a re-analysis of the deposited data

How the results depend on the processing

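The share of significant members moved within its Wilson interval when the distance from exon edges was over 500 bases, when intron 1 of every basic transcript was required, and when exons of all GENCODE transcripts were used. The same held for 4 settings chosen after seeing the data: without mostly masked clusters, without exons of the opposite strand, without RefSeq exons and without Gm20388. With at least 10 recovered reads, which leaves out the members listed at a −log10(P value) of 0, the share was 9.81% in replicate 1 and 8.77% in replicate 2. All clusters of such depth had higher shares, with 13.6% and 15.4% from 10 to 19 reads. From 20 to 49 reads they had 15.3% and 14.6%, and from 50 reads 22.9% and 18.8%. Without members with a single SMInput read, and without those that had no recovered reads, the share of members was 1.74% and 6.83%. Of significant members with recovered reads 55.7% and 48.3% had a single SMInput read, against 22.9% and 25.9% of all significant clusters. With members within 50 bases joined the share of members was 2.4% in replicate 1. The share of all clusters was not counted in these settings. Left to 1 replicate, the mean of 6.16% ranged from 2.02% to 10.3%. At thresholds of 3 the counts were 140 and 219, with 4 shared sites, and at an adjusted p of at most 0.05 (Benjamini-Hochberg) 322 and 1470, with 13 shared sites. Judged by the highest cluster of each replicate alone, 12 of the 25 sites met this adjusted limit in both replicates. An overlap of at least 0.5 of the shorter cluster left 25 shared sites, and leaving out RefSeq exons left 19. The median log2(fold change) with at least 10 reads was 1.03 and 1.07. In windows of 50 bases, significant members of replicate 1 held GAACA in 3.68%, AAACC in 3.03%, GGACT in 4.65%, ACACA in 5.3% and TTTTT in 13.1%. In replicate 2 these were 3.69%, 3.26%, 4.49%, 5.04% and 15.9%. Other members had 3.92%, 3.22%, 4.17%, 5.05% and 15.3% in replicate 1 and 3.6%, 2.6%, 3.9%, 4.46% and 20.4% in replicate 2. In these windows significant members of replicate 1 no longer lay above the others in GGACT (3.47 to 6.2) or below them in TTTTT (11.1 to 15.4), and those of replicate 2 lay just above them in AAACC (2.63 to 4.02). The cause of the changes named here was not tested. No paired analysis was possible for the shares and counts given, because they come from no test across samples and each listed value already compares 1 IP with its own SMInput. A test over the 2 pairs at overlapping clusters was not run.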
